A study of Homo sapiens with 6 samples.

Results

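Cadherins and protocadherins are cell surface proteins that hold neighbouring cells together or let them recognise each other. The members described here are the protein-coding genes named CDH with a number, or with a name starting PCDH, without CDH1, CDH2 and the CDH7, CDH19 and CDH20 genes of chromosome 18. Of 57820 genes in the count table, 81 were members: 18 cadherins, 12 non-clustered protocadherins and 51 clustered protocadherins, of which 15 were alpha, 15 beta and 21 gamma genes. PCDHB16, PCDHGB5 and PCDH20 also met the rule in the annotation used, but their identifiers were not matched in the table and they were not analysed here. RNA-seq had been performed on J82, a human line derived from a bladder cancer and kept in DMEM with fetal bovine serum, in 6 libraries. The 3 control libraries came from vector control cells. The 3 libraries labelled FOXC1 KO (KO-labelled libraries below) came from cells given lentiCRISPRv2, a lentivirus that carries Cas9, with 1 guide against the forkhead transcription factor gene FOXC1. Per the study's methods, cells were selected with puromycin and knockout clones were checked by western blot. Neither the labels nor the methods say whether the libraries came from 1 clone or from separate cultures, so the p-values measure the spread between these libraries, which may be technical.

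Classical cadherins bind their own kind on the next cell in the presence of calcium, and their cytoplasmic tails hold catenins that connect to actin. Protocadherins have longer ectodomains and no catenin-binding tail. The delta protocadherins are single genes spread over several chromosomes. The clustered protocadherins lie in tandem on the long arm of chromosome 5, where each variable exon has its own promoter and a cell uses only some of them, a choice studied mostly in neurons. Alpha and gamma variable exons are spliced to constant exons that every gene of the cluster shares, whereas each beta gene is its own exon.

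To show what the clustered genes share, the first constant exon of the alpha and of the gamma cluster was read from GRCh37, the assembly also called hg19, on the plus strand. Both are coding and 59 bases long, and 39 of the 59 positions (66.1%) were identical between them. Capitals mark their longest shared run, of 10 bases.
Alpha constant exon, chr5:140358534-140358592: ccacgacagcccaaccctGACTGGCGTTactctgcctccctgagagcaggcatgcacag
Gamma constant exon, chr5:140874374-140874432: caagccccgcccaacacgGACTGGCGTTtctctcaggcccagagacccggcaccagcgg
The alpha exon belonged to all 15 alpha genes and the gamma exon to all 21 gamma genes, so a read inside it names the cluster and not the gene. Exon bases held by no other counted gene made up 43.4% to 78.6% of an alpha gene and 35.6% to 72.5% of a gamma gene. The setting by which reads over several genes had been counted was not given. Reads inside shared exons were not counted for every gene, since PCDHA4 had 0 counts and PCDHGA2 at most 1 in any library. Whether such reads were dropped or split was not given, so counts of single alpha and gamma genes are uncertain.

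Each variable exon has its own promoter, so the promoters of 4 clustered genes on which the results turn were taken from RefSeq (GRCh38.p14, plus strand). Each line holds the 120 bases before the annotated start, and capitals mark CGCT, the core of an element known from clustered protocadherin promoters, read on the strand of the gene.
PCDHB2, chr5:141094495-141094614: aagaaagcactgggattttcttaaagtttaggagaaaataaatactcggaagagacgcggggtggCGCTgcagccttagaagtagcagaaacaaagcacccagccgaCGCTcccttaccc
PCDHB13, chr5:141213799-141213918: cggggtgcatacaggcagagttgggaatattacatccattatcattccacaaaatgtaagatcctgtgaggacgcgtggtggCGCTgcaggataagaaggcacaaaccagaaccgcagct
PCDHGB4, chr5:141387578-141387697: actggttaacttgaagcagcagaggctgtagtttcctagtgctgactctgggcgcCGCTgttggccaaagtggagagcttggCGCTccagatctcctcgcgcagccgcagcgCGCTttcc
PCDHGC3, chr5:141475846-141475965: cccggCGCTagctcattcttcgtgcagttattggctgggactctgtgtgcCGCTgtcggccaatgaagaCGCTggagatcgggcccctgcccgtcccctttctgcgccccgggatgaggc
RefSeq promoters, from 250 bases before to 50 bases after the start, were at hand for 64 of the 81 members. CGCT was found on the gene's strand in 44 of 45 clustered members (97.8%) and in 14 of 19 members outside the clusters (73.7%), against 57.7% of 27305 genes. The longer TGNCGCT, which was chosen after these sequences were seen and overlaps CGCT, was found on the gene's strand in 12 of 13 beta, 10 of 13 alpha and 6 of 19 gamma members, against 6.95% of all genes. TAAACA, a forkhead-type core, was searched on both strands and found in 6 of 45 clustered members (13.3%) and in 5 of 19 others (26.3%), against 14.7% of all genes. Among members called in the comparison below and present in the promoter table, it was found in 0 of 6 that were lower and in 1 of 4 that were higher, PCDH18. These matches are descriptions of the letters and not of binding.

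The libraries held 18408134 to 25350908 counts. FOXC1, the targeted gene, stood at 18.4, 16.9 and 19.3 CPM (counts scaled to library size) in control replicates 1 to 3 and at 24.1, 22.2 and 21.1 CPM in the KO-labelled ones. FOXC1 transcript was therefore not lower in the KO-labelled libraries, and its log2 change came to 0.30 (SE 0.091) at an adjusted p of 0.0127, under the 1.3-fold needed for a call. In the study's western blot, FOXC1 protein was lower in knockout J82 cells than in vector control cells. Whether the blotted cells were those of these libraries was not stated. The table does not show FOXC1 protein, and every direction below is between libraries as labelled. The line was checked against 12 urothelial markers. KRT7, KRT18, KRT19, PPARG and GATA3 had at least 447 counts in every library and UPK3B had 10 to 20. UPK1A, UPK1B, UPK2, UPK3A, KRT5 and KRT20 had at most 5 counts. The summed level of the 12 was 1689 to 2034 CPM in control and 1448 to 1607 CPM in KO-labelled libraries. PPARG, GATA3, KRT18 and KRT19 were called lower, and KRT7 and UPK3B were not called.

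Members held 0.0168% to 0.0209% of all counts. The filter on low counts kept 28 of the 81, and the other 53 reached at most 11 counts in any library. Of the 28 tested members, 8 were called lower and 7 higher in the KO-labelled libraries, meaning a change of over 1.3-fold with adjusted p below 0.05. Over all 15647 genes tested, 8.39% were called lower, 7.57% higher and 16.0% in either direction. A change of more than 2-fold was called for 5 members lower and 2 higher, where 2.05% and 2.02% of all genes tested were. The groups did not overlap in CPM for the 15 called members and for 6 further tested members, where 41.3% of all genes tested had groups apart. Of the 30 members outside the clusters, 14 were tested, with 7 called lower and 5 higher. Of the 51 clustered members 14 were tested, with 1 called lower and 2 higher. Calls were thus 85.7% and 21.4% of those tested, beside 16.0% of all genes tested. Tested members averaging under 1 CPM were PCDHB2, PCDHB4, PCDHB10, PCDHB12, PCDHGA4, PCDHGB2 and PCDHGA8 in the clusters, and CDH3 and CDH5 outside. The part of level in this difference was not tested. CDH5 passed the filter through the KO-labelled libraries and PCDHB2 through the control libraries, so each could be called in 1 direction only. In bulk RNA, fewer cells that carry a transcript and less of it per cell cannot be told apart.

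**Figure D1:**
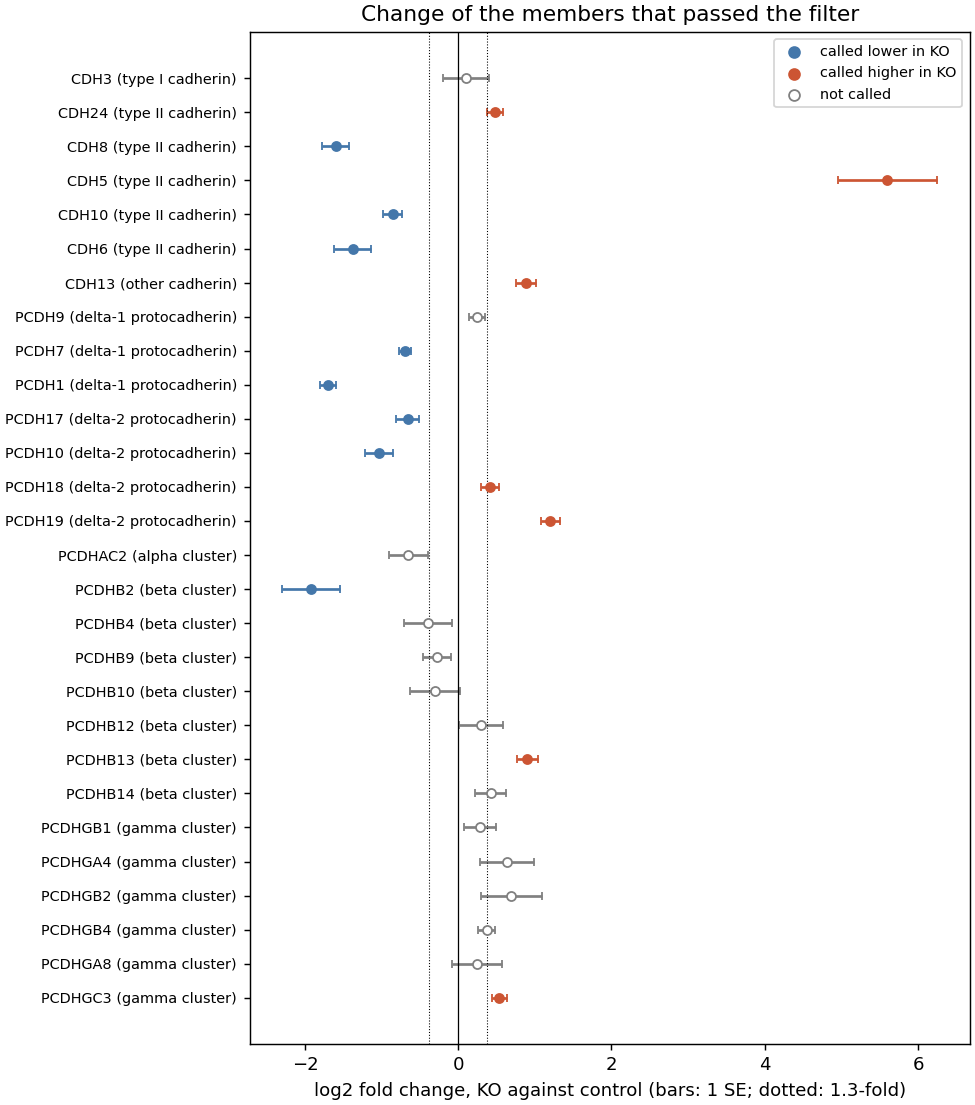
Log2 fold change (x axis, KO-labelled against control) of the 28 members that passed the filter on low counts, with bars of 1 SE and dotted lines at 1.3-fold. Filled points were called lower (8, blue) or higher (7, red), and open points were not called. The called members outside the clusters lie on both sides of 0. Of the 14 clustered members 11 are open, several of them averaging under 1 CPM.

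To describe which members J82 cells carried most of, levels were divided by the exon bases that no other counted gene shares (CPM per kb). These lengths came from GENCODE version 44, while the counts were made over version 19 genes, so the order may depend on the annotation. In control libraries PCDH1 stood at 6.94 ± 1.06 CPM per kb (SD, n = 3) and PCDHGB4 at 6.18 ± 0.159, and the libraries of these 2 members overlapped. PCDHGC3 followed at 4.10 ± 0.539 and PCDH7 at 3.69 ± 0.265, overlapping each other, and then CDH24 at 2.62 ± 0.195 and CDH10 at 2.52 ± 0.311, again overlapping. These 3 pairs did not overlap one another. In KO-labelled libraries the order was PCDHGB4 at 8.06 ± 1.80, PCDHGC3 at 5.97 ± 0.560, CDH24 at 3.63 ± 0.298, PCDH7 at 2.28 ± 0.0376 and PCDH1 at 2.13 ± 0.153 CPM per kb, of which PCDH7 and PCDH1 overlapped. By mean, PCDH1 was thus number 1 in control and number 5 in KO-labelled libraries. The place of PCDHGB4 depends on the length used, since over all its exon bases it ranked number 5 of the 81 members by mean level over the 6 libraries, and over its own bases number 1.

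**Figure D2:**
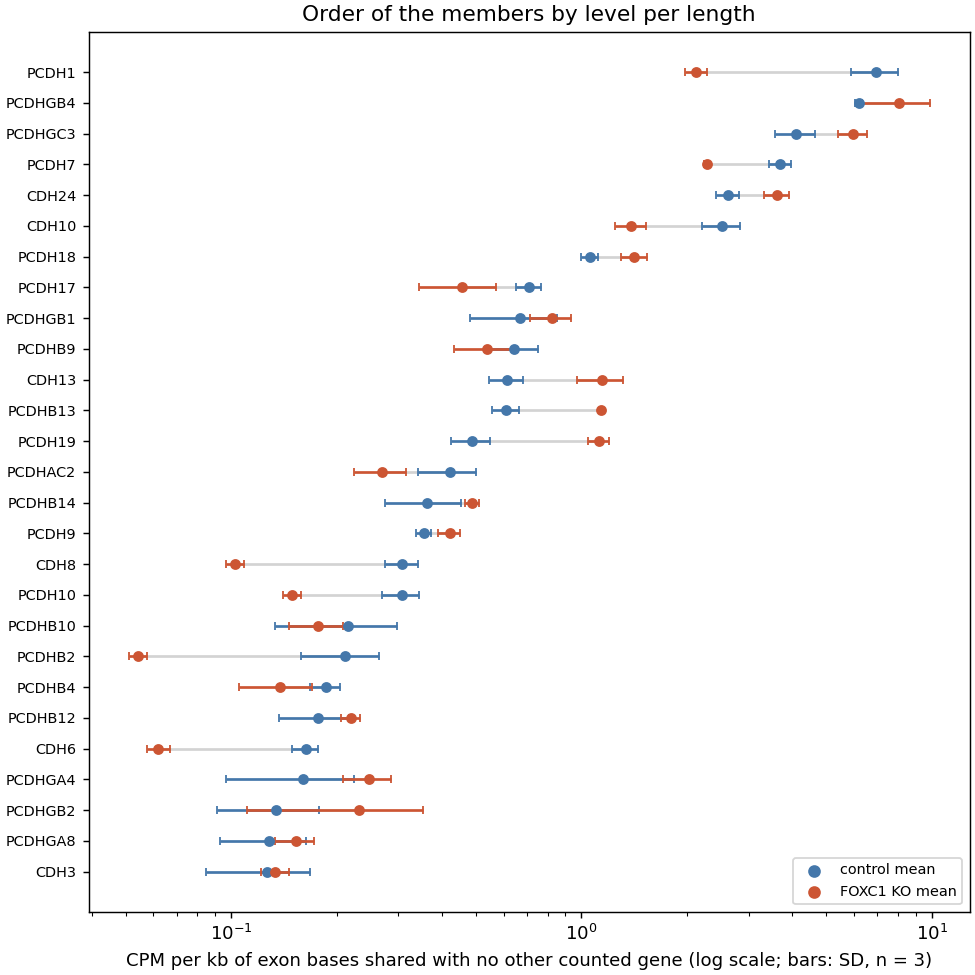
Level of 27 tested members in CPM per kb of exon bases shared with no other counted gene (x axis, log scale), in order of the control mean, with points at group means and bars of 1 SD (n = 3). CDH5 is left out because 2 control libraries had 0 counts. PCDH1 moves from 6.94 in control to 2.13 in KO-labelled libraries, below PCDHGB4 and PCDHGC3.

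Among the delta-1 protocadherins, PCDH1 and PCDH7 were lower in the KO-labelled libraries and PCDH9 was not called. PCDH1, a protocadherin of epithelia that lies at chr5:141232655-141258811 on the minus strand, stood at 47.7, 35.3 and 40.4 CPM in control and at 12.2, 13.6 and 11.98 CPM in KO-labelled libraries. The lowest control library was above the highest KO-labelled one by more than the range of either group. PCDH1 fell by 1.70 on the log2 scale (SE 0.10, 3.25-fold, adjusted p = 1.45e-13). PCDH7, whose tail binds a phosphatase and the SET protein, stood at 51.4, 44.8 and 46.7 CPM in control and at 29.9, 29.2 and 29.0 CPM in KO-labelled libraries. The KO-labelled libraries lay within 1 CPM of each other and below all controls, and PCDH7 fell by 0.70 (SE 0.081, adjusted p = 9.32e-08). PCDH9 stood at 10.9, 10.4 and 11.5 CPM against 13.4, 11.9 and 13.6, with the groups just apart, a log2 fold change of 0.24 and an adjusted p of 0.0722. PCDH11X and its close copy on the Y chromosome were at 0 in every library.

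The delta-2 protocadherins were called in both directions. PCDH10, which recruits the WAVE actin regulator through its tail, stood at 3.57, 2.87 and 2.95 CPM in control and at 1.52, 1.43 and 1.61 CPM in KO-labelled libraries. Every KO-labelled library was below every control, and PCDH10 fell by 1.03 (SE 0.18, adjusted p = 6.61e-05). PCDH17, known from synapses, stood at 5.84, 5.53 and 6.48 CPM against 4.78, 2.89 and 3.82. KO-labelled replicate 1 came nearest to the controls, and PCDH17 fell by 0.66 (SE 0.15, adjusted p = 0.00126). PCDH19, an X-linked gene known from an epilepsy of heterozygous carriers, stood at 4.32, 4.46 and 5.42 CPM in control and at 11.5, 11.3 and 10.1 CPM in KO-labelled libraries. All KO-labelled libraries were near or above 10 CPM and no control reached 6, and the log2 change came to 1.20 (SE 0.12, adjusted p = 6.10e-09). PCDH18 stood at 7.53, 6.76 and 6.92 CPM against 10.4, 9.12 and 8.88, and its log2 change came to 0.42 (SE 0.11, adjusted p = 0.00587). Without KO-labelled replicate 1, its highest library, PCDH18 was at 0.35, under the fold threshold, with an adjusted p of 0.0401. PCDH8 was at 0 in every library, and of the remaining non-clustered genes PCDH15 reached 3 counts and PCDH12 reached 7.

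Of 10 type II cadherins, 5 passed the filter, of which 3 were called lower and 2 higher. CDH8 (chr16:61681146-62070939, minus strand), best known from neurons, stood at 3.70, 4.14 and 4.60 CPM in control and at 1.47, 1.31 and 1.36 CPM in KO-labelled libraries. The KO-labelled libraries were close together and well below every control, and CDH8 fell by 1.60 (SE 0.18, adjusted p = 3.51e-08). CDH10, also known from brain, stood at 10.4, 8.11 and 9.16 CPM against 4.94, 4.64 and 5.65. The groups were apart, and CDH10 fell by 0.86 (SE 0.13, adjusted p = 4.94e-06). CDH6, the kidney cadherin, stood at 1.92, 1.92 and 1.65 CPM against 0.652, 0.753 and 0.680. It had 12 to 19 counts in the KO-labelled libraries and 42 to 47 in the controls, and fell by 1.38 (SE 0.24, adjusted p = 4.85e-05). CDH24, which overlapped CDH10 in control and was the highest type II member in KO-labelled libraries, moved the other way, from 10.7, 9.38 and 9.39 CPM to 12.3, 14.5 and 13.98. All 3 KO-labelled libraries were above all controls, and the log2 change came to 0.48 (SE 0.10, adjusted p = 8.02e-04).

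CDH5, the cadherin of endothelial junctions (chr16:66400593-66438687, plus strand), had 0, 0 and 1 counts in control replicates 1 to 3 and 18, 18 and 26 counts in the KO-labelled ones. CDH5 reads were thus all but missing from control and present at a low level, 0.932 ± 0.199 CPM (SD, n = 3), in every KO-labelled library. The 62 counts against 1 gave a ratio of 66.7 scaled to library size. Its exact 95% interval of 11.5 to 2678 covers counting error only. The edgeR fit over all genes gave an adjusted p of 8.60e-08. CDH5 passed the filter only through the KO-labelled libraries, so it could be called higher only, and this p is no separate support. Of the 6 other endothelial markers in the table, EGFL7 had 0 counts in each control and 3, 2 and 1 in the KO-labelled libraries, so its groups were apart, and it did not pass the filter. TIE1, TEK, VWF and CLDN5 had at most 7 counts in any library and overlapped between the groups, and KDR, at 7 to 18 counts, was not called (log2 fold change -0.14, adjusted p = 0.821). The summed level of the 6 was 0.707 to 1.11 CPM in control and 0.807 to 1.14 CPM in KO-labelled libraries, so it overlapped between the groups. Several members are best known from neurons, and 7 neuronal markers summed to 15.2 to 17.4 CPM in control and 17.7 to 20.9 CPM in KO-labelled libraries. Of the 4 tested, only SNAP25 was called, higher, at a mean of 4.4 CPM in control and 7.8 CPM in KO-labelled libraries (log2 fold change 0.82, adjusted p = 5.15e-05). SYT1 was lower with groups apart but not called (log2 fold change -0.32, adjusted p = 0.202), and TUBB3 and SYP overlapped between the groups. STMN2 was at 0 in every library. RBFOX3, lower with groups apart, reached 4 counts, and ELAVL3 reached 1. The 6 fibroblast markers summed to 168 to 187 CPM in control and 107 to 122 CPM in KO-labelled libraries, with COL1A2 and DCN called lower and COL1A1 called higher. The part of the neuronal and fibroblast markers in the members' changes was not tested.

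CDH13, the T-cadherin that is tied to the membrane by a lipid anchor and lacks a cytoplasmic tail, stood at 4.68, 5.40 and 5.86 CPM in control and at 11.4, 8.40 and 9.94 CPM in KO-labelled libraries. The groups were apart, and CDH13 changed by 0.88 on the log2 scale (SE 0.13, adjusted p = 3.72e-06). Of its exon bases 78.7% were shared with no other gene, and the rest overlapped CDH13-AS2, an antisense gene. Whether counting used the strand was not given, so reads there may have been dropped or may belong to either gene. The same holds for smaller stretches of CDH3, CDH8 and PCDH9, which overlap antisense genes of their own names. CDH6, with 90.1% of its exon bases its own, overlaps 2 other counted genes. CDH3, the P-cadherin and the only type I member tested, stood at 0.981, 0.491 and 0.747 CPM against 0.706, 0.793 and 0.850, overlapped between the groups and was not called (log2 fold change 0.10, adjusted p = 0.834). CDH4 had 3 to 7 counts and CDH15 0 to 2. Of the other cadherins not tested, CDH9, CDH11 and CDH22 were at 0, CDH18 had 3 to 8 counts, CDH12 2 to 5, CDH23 2 to 6, CDH26 0 to 7, CDH17 1 to 4 and CDH16 0 to 1.

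**Figure D3:**
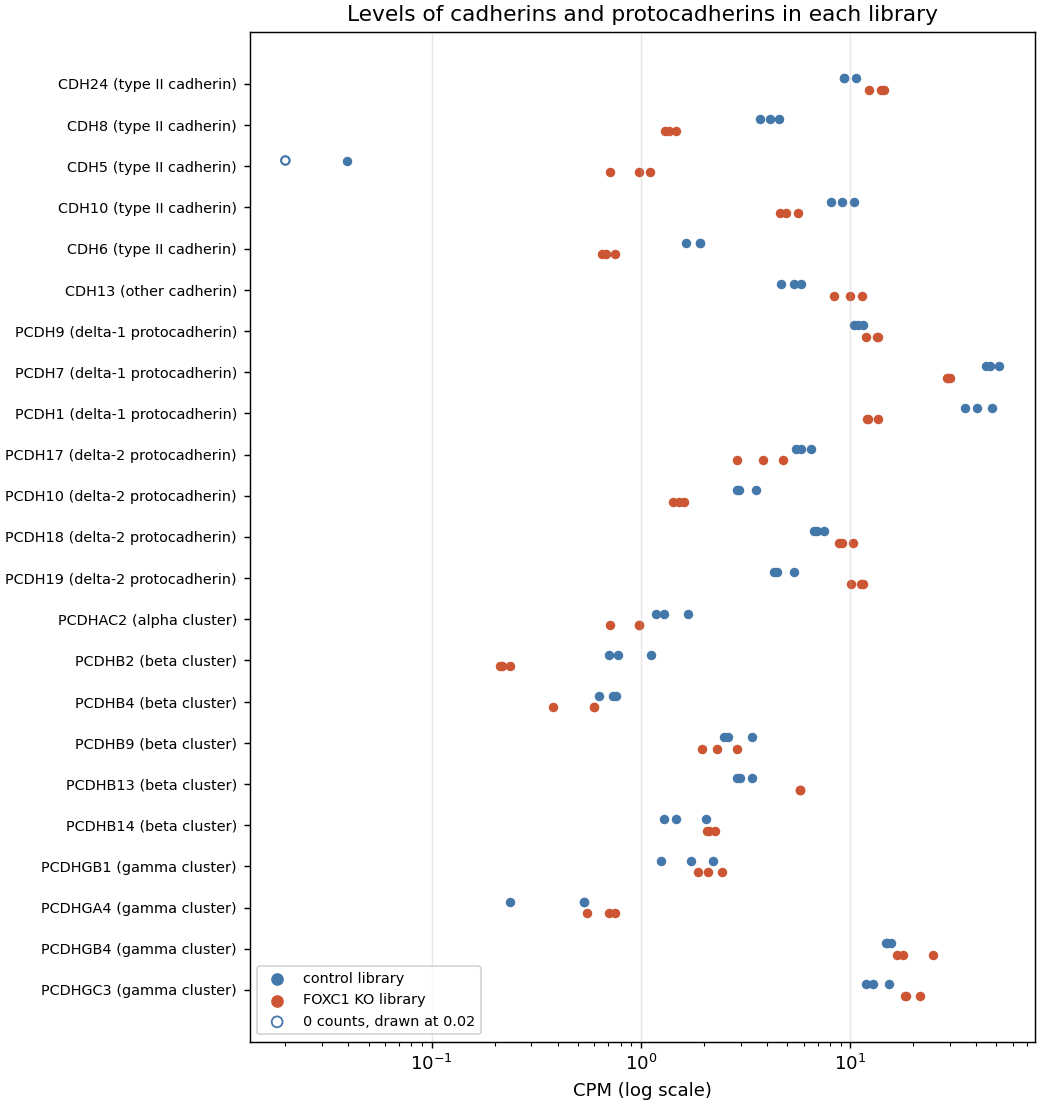
CPM (x axis, log scale) of the 23 members named by the rule, 1 point per library, control in blue and KO-labelled in red. PCDH1, PCDH7, CDH8, CDH10 and CDH6 have every red point to the left of the blue ones, PCDH19, CDH13 and CDH5 to the right, and the 2 control libraries of CDH5 with 0 counts are drawn as an open point at 0.02.

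Members of the same chromosome were called in opposite directions in several places and in the same direction in others. PCDH10, lower, and PCDH18, higher, lie 4310 kb apart on chromosome 4 with no other member between them. CDH8, lower, and CDH5, higher, lie 4330 kb apart on chromosome 16. In the same direction, PCDH7 and PCDH10 of chromosome 4 were both lower, and CDH5 and CDH13 of chromosome 16 both higher. CDH10 and CDH6, both lower, lie 6549 kb apart on chromosome 5. PCDH1, lower, lies 340 kb beyond the last gamma gene, while in the gamma cluster PCDHGC3 was higher. In the beta cluster PCDHB2, lower, and PCDHB13, higher, lie 115 kb apart with 10 of the analysed beta genes between them. Of the 58 other genes between the clusters or within 500 kb of them, 26 were tested, 0 were called lower and 3 were called higher by edgeR (11.5% in either direction, beside 16.0% of all genes tested). An unadjusted p under 0.05 was found for 12 of the 26, beside 39.8% of all genes tested. The 3 were HBEGF, a growth factor ligand (log2 fold change 0.56), CD14, a co-receptor for bacterial lipopolysaccharide (0.62), and FCHSD1 (0.41). The median log2 fold change of the 26 was 0.15, where that of all genes tested was -0.00084.

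In the alpha cluster only PCDHAC2 passed the filter. Its 29, 41 and 30 counts in control and 18, 18 and 23 in KO-labelled libraries did not overlap. PCDHAC2 belongs to the C-type genes, which are more alike across the alpha and gamma clusters than to their neighbours. Its log2 fold change was -0.65 (SE 0.25) with an adjusted p of 0.0510, so it was not called. It held 63.1% to 71.4% of the alpha counts in control and 69.7% to 75.0% in KO-labelled libraries, with wide counting intervals (from 50.2% to 84.3% and from 51.3% to 90.2%). The other 14 alpha genes reached at most 5 counts, and PCDHA4 was at 0. PCDHA12 had 1, 4 and 3 counts in control and 0 in each KO-labelled library. Summed over the cluster, alpha counts were 43, 65 and 42 in control and 24, 24 and 33 in KO-labelled libraries, a log2 ratio of mean CPM of -0.77, given with no test.

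The beta genes are single exons, and 7 of the 15 were tested. PCDHB2 (chr5:140474191-140478287, plus strand) had 25, 19 and 18 counts in control and 4, 6 and 5 in KO-labelled libraries. That is 0.867 ± 0.217 CPM against 0.223 ± 0.0135 CPM (SD, n = 3), with the groups apart. PCDHB2 fell by 1.92 (SE 0.38, adjusted p = 2.36e-04). It passed the filter only through the control libraries, so it could be called lower only. PCDHB13 (chr5:140593491-140598551, plus strand) had 76, 73 and 73 counts in control and 106, 145 and 135 in KO-labelled libraries. The KO-labelled libraries were alike at 5.76, 5.75 and 5.74 CPM against 3.39, 2.99 and 2.87 in control, and the log2 change came to 0.90 (SE 0.14, adjusted p = 8.61e-06). The promoters of these 2 genes, printed above, each hold CGCT once or more within 120 bases of the start. As a share of the counts of the 15 analysed beta genes, PCDHB13 held 24.4% to 29.7% in control and 42.1% to 45.2% in KO-labelled libraries. PCDHB2 held 6.02% to 9.77% in control and 1.59% to 1.79% in KO-labelled libraries. PCDHB9 held 21.9% to 28.8% in control and 15.4% to 21.0% in KO-labelled libraries, but its CPM overlapped between the groups and it was not called (log2 fold change -0.28, adjusted p = 0.270). PCDHB14, at 33, 50 and 33 counts against 39, 57 and 49, had groups apart in CPM, a log2 fold change of 0.43 and an adjusted p of 0.116. PCDHB4, at 17, 18 and 16 counts against 7, 15 and 14, also had groups apart, with a log2 fold change of -0.40 and an adjusted p of 0.375.

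PCDHB10 and PCDHB12 overlapped between the groups and were not called, and the 8 beta genes not tested reached at most 10 counts. The sum of the analysed beta genes was 11.6 ± 0.172 CPM in control and 13.2 ± 0.497 CPM in KO-labelled libraries, a log2 ratio of 0.19. The sum thus differed less than PCDHB2 or PCDHB13 did. Beta genes also resemble each other in sequence. Of the 75-base windows of their exon sequence, a median of 92.1% per gene occurred in no transcript of another counted gene, with 84.8% for PCDHB2 and 81.5% for PCDHB13. Reads from the remaining windows may have been dropped or split, which was not stated.

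**Figure D4:**
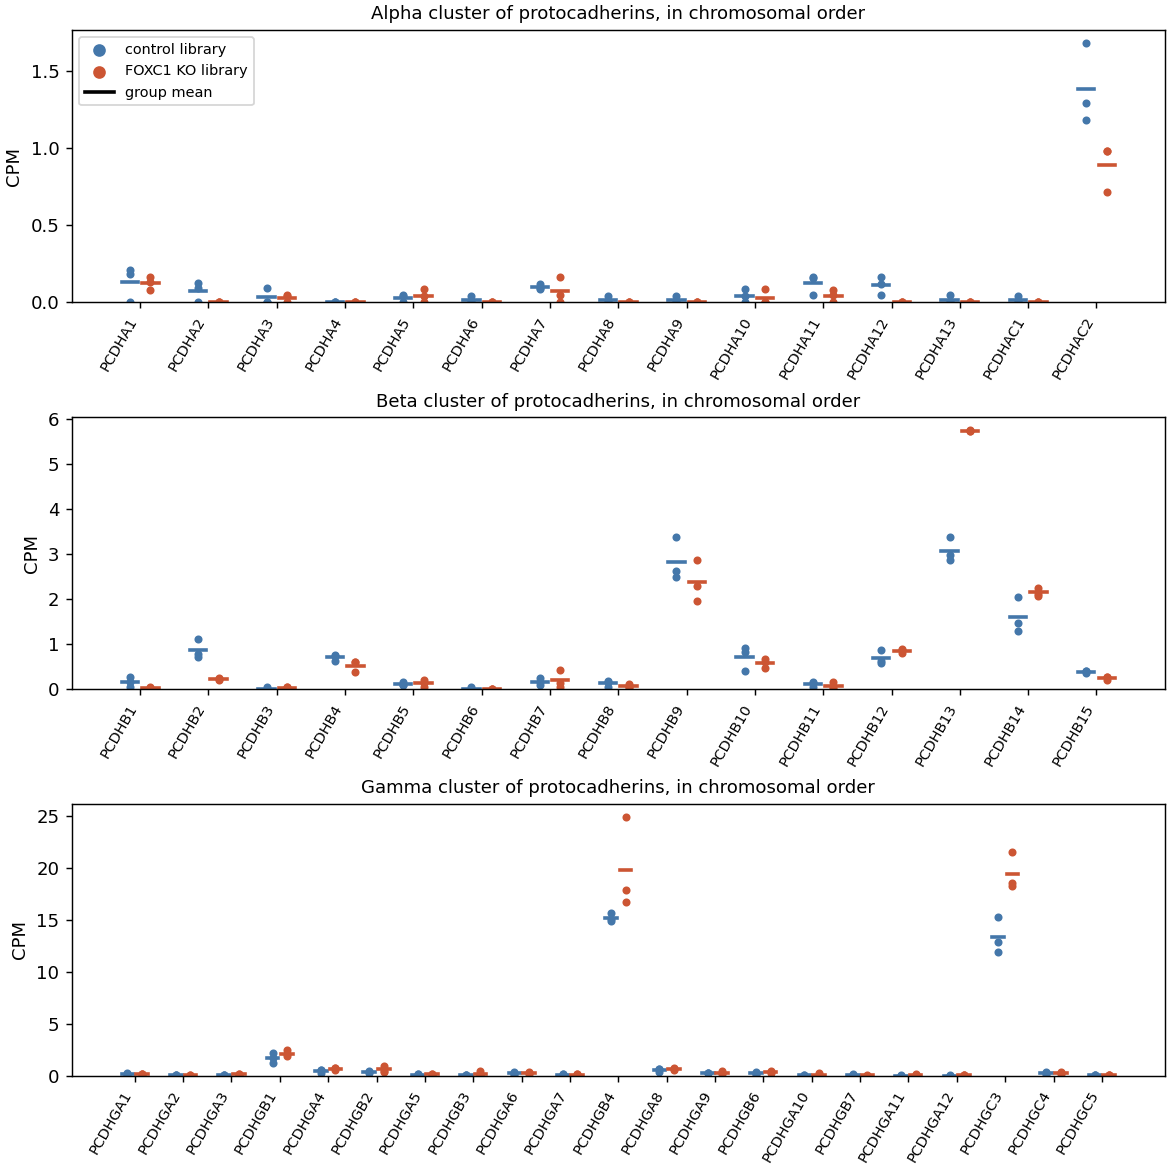
CPM (y axes, linear and from 0, with a different scale in each panel) of every analysed alpha, beta and gamma protocadherin, in chromosomal order, with points for libraries and lines for group means. PCDHAC2, a few beta genes, and PCDHGB4 with PCDHGC3 hold most of each cluster's level, and most other genes lie near 0 in both groups.

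In the gamma cluster PCDHGB4 and PCDHGC3 held most of the counts of the analysed genes. PCDHGC3 (chr5:140855514-140892544, plus strand), a C-type gene, stood at 15.3, 11.9 and 12.9 CPM in control and at 21.5, 18.5 and 18.2 CPM in KO-labelled libraries. All KO-labelled libraries were above all controls, and PCDHGC3 changed by 0.54 on the log2 scale (SE 0.10, adjusted p = 1.89e-04). PCDHGB4 (chr5:140767265-140892542, plus strand) stood at 15.6, 14.9 and 15.1 CPM against 24.9, 17.8 and 16.7. KO-labelled replicate 1 was far above the other two, and the log2 difference of 0.37 (SE 0.11, adjusted p = 0.0129) lay just under the threshold of 0.379. Without KO-labelled replicate 1, PCDHGB4 had a log2 fold change of 0.19 and an adjusted p of 0.205. Only 37.02% of the 75-base windows of PCDHGB4 and 62.7% of those of PCDHGC3 occurred in no transcript of another counted gene. Reads in the constant exons counted for every gamma gene would also show in PCDHGA2, which had at most 1 count in any library. How reads reaching from a variable into a constant exon were counted was not given. PCDHGB4, with 2459 own bases of 6902 exon bases, also shares bases outside the constant exons with its neighbour PCDHGA8.

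As a share of the counts of the 21 analysed gamma genes, PCDHGB4 held 44.4% to 46.3% in control and 41.3% to 45.9% in KO-labelled libraries. PCDHGC3 held 36.7% to 43.4% and 39.7% to 44.9%. Both shares overlapped between the groups. The gamma sum was 33.4 ± 1.63 CPM in control and 45.7 ± 7.41 CPM in KO-labelled libraries, with 54.2, 42.4 and 40.6 CPM in KO-labelled replicates 1 to 3 against 35.3, 32.3 and 32.5 in control. The log2 ratio was 0.45, and 0.31 without KO-labelled replicate 1 (an alternative added after the data were seen). The other 4 tested gamma genes, PCDHGB1, PCDHGA4, PCDHGB2 and PCDHGA8, had log2 fold changes from 0.25 to 0.69 and were not called. PCDHGB1, next in level in the cluster, had 28, 54 and 44 counts against 45, 53 and 44, with overlapping groups (adjusted p = 0.331). PCDHGA4 had 12, 13 and 6 counts against 13, 19 and 13, with groups apart in CPM (adjusted p = 0.183). The 15 gamma genes not tested reached at most 11 counts.

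Proteins that work with the family were counted from 5 lists. Of the catenins and anchors that link cadherin tails to actin, 9 of 11 were tested and 1 was called, JUP. JUP, or plakoglobin, had 543, 447 and 489 counts in control and 138, 252 and 172 in KO-labelled libraries, and fell by 1.303 (SE 0.12, adjusted p = 1.30e-09). CTNNB1, its close relative beta-catenin, was not called (log2 fold change 0.11, adjusted p = 0.236). Of 7 enzymes that cleave cadherins, APH1B, a subunit of gamma-secretase, was called lower (fell by 0.50, SE 0.093, adjusted p = 1.10e-04). Of 14 regulators of clustered protocadherin promoters, among them CTCF and the cohesin subunits, edgeR called 0, and 5 had an unadjusted p under 0.05, beside 39.8% of all genes tested.

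Of 8 tested protocadherin effectors, 2 were called lower. CYFIP2, a subunit of the WAVE complex, fell by 1.01 (SE 0.20, adjusted p = 2.21e-04), and PTK2B, the kinase PYK2 that binds clustered protocadherin tails, fell by 0.69 (SE 0.10, adjusted p = 5.05e-06). Of 14 tested genes of the wider cadherin superfamily, 2 were called in each direction. CLSTN2, a calsyntenin, had 148, 115 and 165 counts in control and 323, 395 and 375 in KO-labelled libraries, and its log2 change came to 1.46 (SE 0.12, adjusted p = 7.04e-11). FAT4 was called higher (0.56, adjusted p = 3.16e-05), CDHR3 lower (-0.84, adjusted p = 2.36e-05) and the dachsous cadherin DCHS2 lower (-1.03, adjusted p = 0.0144), the last with overlapping groups. Over the 5 lists, 52 genes were tested, 6 were called lower and 2 higher, 15.4% in all, beside 16.0% of all genes tested. The median log2 fold change of the lists was -0.025.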

How the data were processed

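RNA-seq libraries (KAPA mRNA HyperPrep, paired 75-base reads) of J82 cells were compared, 3 control against 3 labelled FOXC1 KO, with groups taken from the labels. The deposited values are unnormalized counts of reads over genes, made by the authors by alignment to hg19 with STAR and assignment to GENCODE version 19 genes with featureCounts of Subread. Tool versions, strand setting and the handling of reads that map to or overlap several genes are not given in the sources used here. Replicates were not pooled, and 0 columns belonged to other samples. Symbols, exons and biotypes came from GENCODE version 44 lifted to GRCh37, which matched 55538 of 57820 identifiers (96.05%).

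The whole table was filtered with filterByExpr (minimum count 10) of edgeR 4.0.16 in R 4.3.3, which kept 15647 genes, normalized with TMM and tested with the robust quasi-likelihood F test, with group as the only term. Benjamini-Hochberg adjusted p-values run over all tested genes. Genes were called when they changed over 1.3-fold with adjusted p below 0.05, the thresholds of the study's methods. Log2 fold changes are KO-labelled against control, standard errors derive from the F statistic, and CPM use TMM-scaled library sizes. A floor of 3 counts and exact 95% intervals cover counting error only. Promoters and constant exons were read from RefSeq and GRCh37, and motifs were searched by exact match.

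Named members were those called, those averaging 1 CPM or more, and tested ones whose groups did not overlap. Called genes of the partner lists were named, at most 6 of each. CTNNB1 was named after its value was seen. The members and lists were chosen with earlier results of these data known. Alternatives were DESeq2 1.42.0, RLE factors, library size alone, no filter, a mean of at least 50 counts, the replicate number as a block, each library left out, and other thresholds and lengths. Within groups, log2 CPM correlated across genes at 0.996 or more, and between groups at 0.9889 or less. Libraries of a group differed beyond sampling noise (chi-square per gene 2.94 to 10.1). Same-numbered libraries did not deviate together (correlations -0.0402, -0.129 and 0.0734), so the numbers do not pair them. PECAM1 and CYFIP1 were not matched in the table. A list of leukocyte markers is not reported here.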

Additional observations from a re-analysis of the deposited data

How the results depend on the processing

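Of 177 values of the 15 called members under the alternatives, 176 kept their direction and call, 0 reversed, and 1 lost its call: PCDH18 without KO replicate 1. CDH5, CDH6 and PCDHB2 had no value with a mean of at least 50 counts. They did not enter that fit, so they were not called there. Of the values of other named members, 82 kept their side of the threshold, 9 gained a call and 0 reversed. The 9 belonged to PCDHAC2 (with library size alone, the block, or control replicate 1 or 3 left out), PCDHGB4 (with DESeq2, or control replicate 1, KO replicate 2 or KO replicate 3 left out) and PCDHB14 (without control replicate 2). Members called lower numbered 6 to 9 and members called higher 6 to 8 over the alternatives that kept the fold threshold. With more than 2-fold required, 5 were lower and 2 higher, and the calls in the partner lists went from 8 to 4. With no fold threshold the partner list calls were 16. Without the low-count filter 74 members entered the fit, and with a mean of at least 50 counts 15 did. With the replicate number as a block, 9 members were lower and 7 higher, and PCDHAC2 had a log2 fold change of -0.65 (adjusted p = 0.0483), but the numbers do not pair the libraries. Leaving out 1 library, chosen as an alternative after the data were seen, gave log2 ratios of summed CPM from -0.91 to -0.55 for the alpha, 0.17 to 0.22 for the beta and 0.31 to 0.53 for the gamma cluster. Levels per kb of PCDHGB4, PCDHGC3 and CDH13 moved when all exon bases were used (7.12 to 2.54, 5.04 to 3.02 and 0.877 to 0.690 CPM per kb over the 6 libraries). Without the filter, 46 of the 53 members outside it were fitted, and 1 was called, PCDHA12 (1, 4 and 3 counts in control and 0 in each KO-labelled library, adjusted p = 0.0488).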
